A study of Mus musculus with 6 samples.

Results

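The 10 genes described here belong to the Bcl2 family, which sets the threshold for apoptosis at the outer mitochondrial membrane. They were taken by symbol from the authors' deposited table of 15982 genes, where each of the 10 symbols has 1 row. By known function 5 are pro-survival genes (Mcl1, Bcl2l1, Bcl2, Bcl2a1b and Bcl2a1d) and 5 are pro-death genes (Bcl2l11, Bid, Bad, Bax and Bak1). The RNA came from primary mouse bone marrow-derived macrophages of 2 genotypes, Ctrl and Bub1 cKO, the latter with the mitotic kinase gene Bub1 deleted in myeloid cells. Both genotypes were first grown for 3 days with M-CSF (20 ng/ml) and then received M-CSF (20 ng/ml) plus RANKL (50 ng/ml), the osteoclast-inducing cytokine, for 2 days. The labels name 3 libraries of each genotype. The Cre driver, the deleted exons, the alleles carried by Ctrl, and the strain and age of the mice were not given in the sources used here.

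Pro-survival proteins of the family hold the effectors Bax and Bak1 in check, and the effectors, once free, open pores that release cytochrome c and start the caspase cascade. BH3-only proteins (here Bcl2l11, Bid and Bad) tip this balance by occupying the pro-survival proteins or by activating the effectors directly. In macrophages and osteoclasts, M-CSF is known to keep cells alive in part by holding down Bim, the product of Bcl2l11, and Bcl-xL, the product of Bcl2l1, is known to protect osteoclasts from apoptosis.

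The authors' deposited table holds 1 expression value per gene and genotype, read here as TPM, a unit that scales reads for transcript length and library total. Single libraries have no values here, so whether the libraries of the genotypes overlap cannot be said. A log2 change stands beside these values and equals log2 of the Bub1 cKO value over the Ctrl value after adding 1 TPM to each. Separately, the table gives a test statistic with its standard error and p. The product of statistic and standard error is the change that the test itself estimated, called the tested change below. It need not match the deposited log2 change. A gene's direction below is that of its statistic, and 95% intervals belong to the tested change. No label says that libraries of a genotype came from separate animals, so p-values cover only the spread between libraries, technical or not.

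Bcl2a1b and Bcl2a1d are near-identical copies. With another copy, Bcl2a1a, they are shown first because their likeness limits how reads can be assigned to them. All 3 lie on chromosome 9, and each has 1 annotated transcript and a coding sequence of 516 bases (GENCODE M21, GRCm38). The first 60 coding bases are the stretch where the 3 differ most. They read as follows, with capitals at the 6 positions that are not the same in all 3, and lie in this order at chr9:88957051-88957110 (plus strand), chr9:89199360-89199419 (plus strand) and chr9:88731660-88731719 (minus strand).
Bcl2a1a: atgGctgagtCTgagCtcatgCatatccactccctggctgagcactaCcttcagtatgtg
Bcl2a1b: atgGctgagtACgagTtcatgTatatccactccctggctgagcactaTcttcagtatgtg
Bcl2a1d: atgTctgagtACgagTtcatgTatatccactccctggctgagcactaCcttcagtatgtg
Over the whole coding sequence 12 positions differ among the 3. The transcripts of Bcl2a1b and Bcl2a1d differ at 7 of 817 aligned bases (99.1% identity) and at 2 of the last 300, and they share an identical run of 217 bases. In a 3' tag library reads come from near the transcript's end, so the split of reads between these copies is uncertain.

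No member passed the authors' adjusted p under 0.05: 0 of 10, beside 29 of 15982 genes (0.181%) in the authors' deposited table. At an unadjusted p under 0.05 there were 2 of 10 members, where the share over all genes was 4.81%. They were Bcl2l1, higher in Bub1 cKO (1 of 10, beside 2.35% of all genes), and Bcl2l11, lower by its statistic (1 of 10, beside 2.46%). The smallest adjusted p of any member in the authors' deposited table was 0.809, that of Bcl2l11. All 10 members had a mean of 1 TPM or more, but Bcl2 and Bcl2a1d reached it through Bub1 cKO alone.

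The order of the levels was nearly the same in both genotypes. In Ctrl, Mcl1 was the most abundant member at 66.9 TPM, above 91.1% of all genes. It was followed by Bad (49.7 TPM), Bax (22.9), Bak1 (15.6), Bcl2l11 (15.5), Bcl2a1b (12.2), Bid (5.81), Bcl2l1 (3.23), Bcl2 (0.688) and Bcl2a1d (listed at 0). In Bub1 cKO the first 3 places were the same, with Mcl1 at 65.9, Bad at 46.0 and Bax at 17.3 TPM. Only the neighbours Bak1 and Bcl2l11, and Bcl2 and Bcl2a1d, changed places. Which neighbours differ beyond the spread between libraries cannot be said from 1 value per genotype. Scaling by length also understates long transcripts when reads come from 3' ends.

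**Figure D1:**
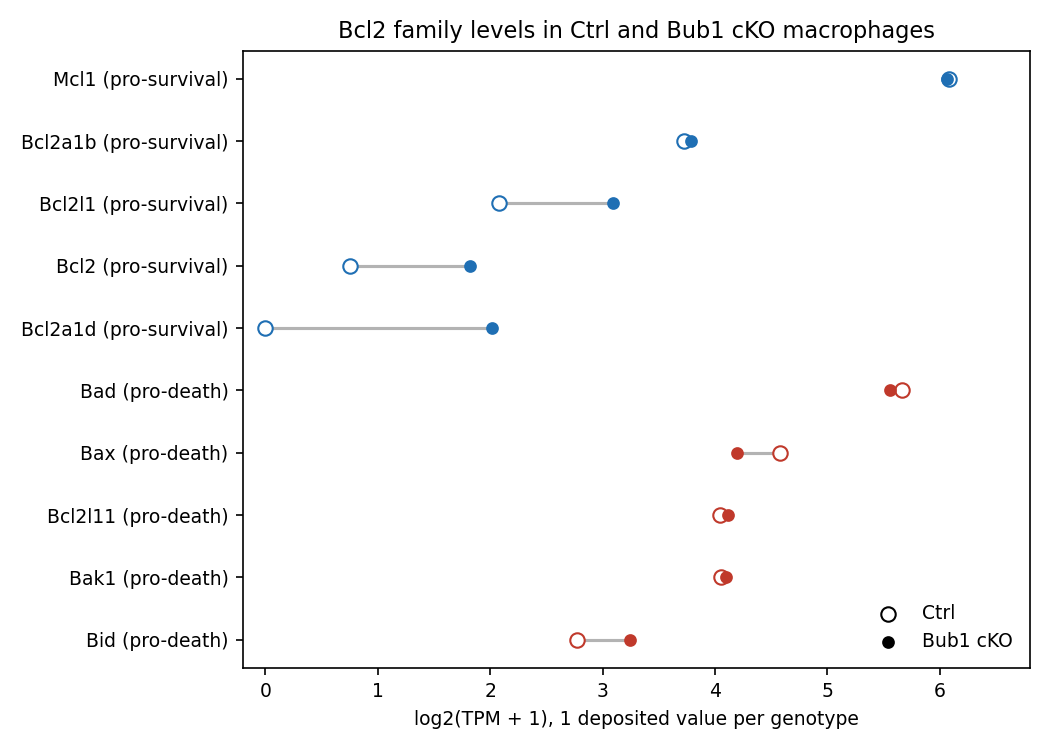
Level of each member in Ctrl (open points) and Bub1 cKO (filled points) as log2(TPM + 1), 1 deposited value per genotype, with pro-survival genes in blue and pro-death genes in red. The 3 pro-survival genes at the bottom of their class, Bcl2l1, Bcl2 and Bcl2a1d, are further right in Bub1 cKO, while Mcl1 sits at 66.9 and 65.9 TPM.

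Among the pro-survival genes, the abundant Mcl1 had nearly equal values in both genotypes and the scarcer Bcl2l1, Bcl2 and Bcl2a1d had higher values in Bub1 cKO. Mcl1 (ENSMUSG00000038612.16, chromosome 3, 95658788 to 95663176, plus strand) encodes a short-lived protein that binds Bim and Bak. For this gene the authors' deposited table lists a log2 change of -0.02 (standard error 0.14). Its 95% interval ran from -0.29 to 0.28, the narrowest of the 10 members.

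Bcl2l1 (ENSMUSG00000007659.18, chromosome 2, 152780668 to 152831728, minus strand) encodes Bcl-xL. Its levels in the authors' deposited table were 3.23 TPM (Ctrl) and 7.50 TPM (Bub1 cKO), a ratio of 2.32. With a log2 change of 1.01 (standard error 0.52), it had an unadjusted p of 0.022 and did not pass after adjustment (adjusted p 0.861, authors' deposited table). The tested change of 1.19 had a 95% interval from 0.17 to 2.21. A pseudocount of 5 instead of 1 gave a log2 change of 0.60. Bcl-xL is also known to protect maturing red cells. Erythroid markers, of which 6 of 9 have a row, summed to 19.6 TPM in Ctrl against 358 TPM in Bub1 cKO. All 6 had a positive statistic. The 4 hemoglobin genes Hbb-bs, Hbb-bt, Hba-a1 and Hba-a2 carry nearly the whole sum, with 19.6 TPM (Ctrl) and 356 TPM (Bub1 cKO). In the authors' deposited table Hbb-bs (adjusted p 0.00017) and Hbb-bt (0.025) passed the adjusted p under 0.05. Hba-a1 (0.857) and Hba-a2 (0.502) did not. Alas2 and Slc4a1 were listed at 0 in Ctrl. With Bub1 deleted, Alas2 reached only 2.07 TPM (unadjusted p 0.106) and Slc4a1 only 0.132 TPM (unadjusted p 0.34, authors' deposited table). What part the erythroid markers have in the value of Bcl2l1 was not tested.

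Bcl2 (ENSMUSG00000057329.7, chromosome 1, 106538178 to 106714274, minus strand) is the founding member of the family. The authors' deposited table puts it at 0.688 TPM (Ctrl) and 2.52 TPM (Bub1 cKO), with an unadjusted p of 0.058 and an adjusted p of 0.985. The 95% interval of its tested change ran from -0.05 to 2.86. In Ctrl only 29.0% of all genes were lower than Bcl2. Its log2 change was 1.06 as deposited, and 0.40 after adding 5 TPM to each value.

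Bcl2a1b and Bcl2a1d encode A1, a pro-survival protein abundant in neutrophils and induced by NF-κB. Bcl2a1b (ENSMUSG00000089929.1, chromosome 9, 89199209 to 89207827, plus strand) had 12.2 TPM (Ctrl) and 12.8 TPM (Bub1 cKO) in the authors' deposited table, where its standard error is 0.93. Bcl2a1d (ENSMUSG00000099974.1, chromosome 9, 88723285 to 88731914, minus strand) was listed there at 0 in Ctrl and at 3.04 TPM in Bub1 cKO, and the authors' deposited table gives it the largest standard error of the 10, 2.67 (unadjusted p 0.072). Bcl2a1a was likewise listed at 0 in Ctrl, against 0.711 TPM in Bub1 cKO. Summed over these 3 copies, which removes the split between them, A1 transcripts made up 12.2 TPM (Ctrl) and 16.6 TPM (Bub1 cKO), which is 0.42 on the log2 scale, with no error.

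Neutrophil markers were uneven: of 12 markers, 11 have a row, 10 of these had a positive statistic, and they summed to 104 TPM in Ctrl against 240 TPM in Bub1 cKO. Most of that sum is S100a8 and S100a9, calcium-binding proteins of neutrophils that together made up 79.8 TPM (Ctrl) and 207 TPM (Bub1 cKO). The other 9 summed to 24.3 TPM (Ctrl) and 32.9 TPM (Bub1 cKO), 8 of them with a positive statistic. Among these 9, Cxcr2 had 2.59 TPM (Ctrl) and 10.9 TPM (Bub1 cKO). It was the only neutrophil marker past the adjusted p under 0.05 (adjusted p 0.036, authors' deposited table). Of the same 9, Ltf (12.3 against 6.74 TPM) and Prtn3 (1.958 against 0.722 TPM) had lower values in Bub1 cKO. The statistic of Ltf was nevertheless positive (0.22), opposite signs as in Bcl2l11, so its direction is not settled. Elane, Camp and Retnlg were listed at 0 in Ctrl, and the authors' deposited table has them at 1.52, 0.508 and 0.283 TPM in Bub1 cKO. The part of the neutrophil markers in the values of Bcl2a1a and Bcl2a1d was not tested. In bulk RNA, more cells of a type and more RNA per cell cannot be told apart.

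**Figure D2:**
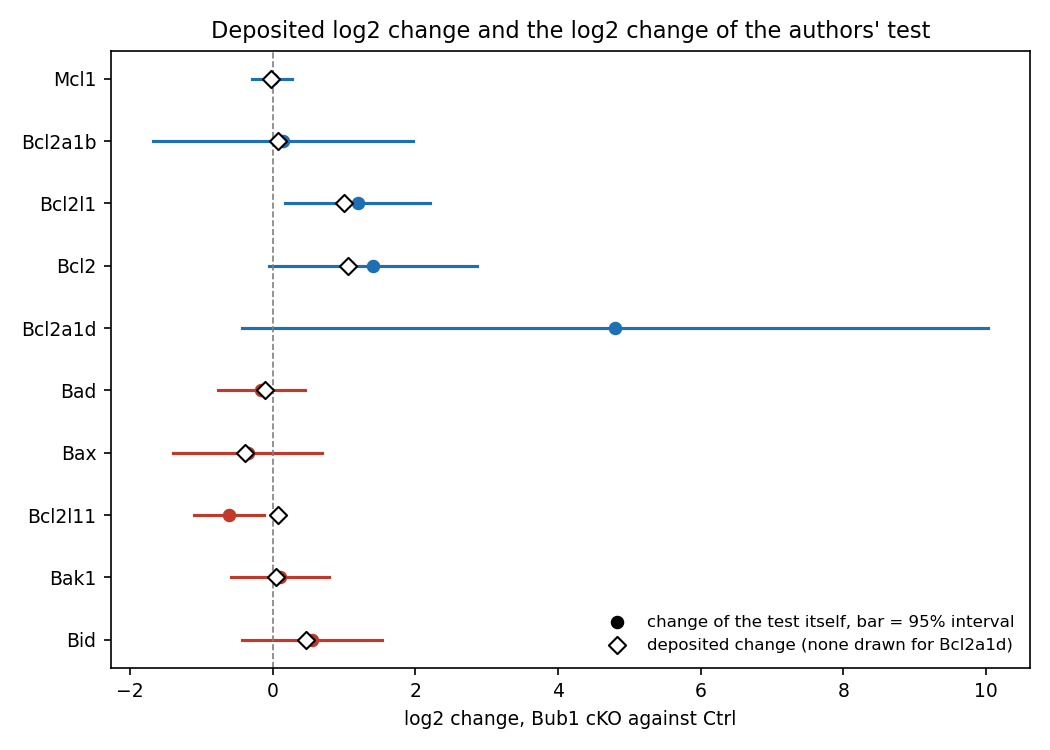
Log2 change of each member between Bub1 cKO and Ctrl, with filled points for the tested change, bars for its 95% interval and open diamonds for the deposited change. The intervals of Bcl2l1 (0.17 to 2.21) and Bcl2l11 (-1.11 to -0.11) leave out 0 before adjustment, and for Bcl2l11 the diamond lies on the other side of 0. No diamond is drawn for Bcl2a1d, which is listed at 0 in Ctrl.

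Among the pro-death genes, Bcl2l11 was the member whose deposited values and test disagreed. Bcl2l11 (ENSMUSG00000027381.16, chromosome 2, 128126038 to 128162547, plus strand) had 15.5 TPM (Ctrl) and 16.3 TPM (Bub1 cKO) in the authors' deposited table, which is a log2 change of 0.07. Its statistic was nevertheless -2.41, with an unadjusted p of 0.016 (adjusted p 0.809) in the authors' deposited table. Its tested change was -0.61, with a 95% interval from -1.11 to -0.11. These changes lie 2.69 standard errors apart, a gap matched or exceeded in 155 of 15982 genes (0.970%, Bcl2l11 included). Opposite signs occur in 1519 genes, of which 10, Bcl2l11 among them, have an unadjusted p under 0.05. Among the 10 members, Bcl2l11 was the only one with opposite signs. Apart from it only Bcl2a1d had a gap above 1 standard error, as did 10.7% of all genes.

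GENCODE M21 lists 8 transcripts of Bcl2l11 between 391 and 5036 bases long, so its TPM may depend on how reads were shared among transcripts. Many transcripts are not particular to Bcl2l11: Bcl2l1 and Bad have 9 each, with gaps of 0.36 and 0.15 standard errors. The part of read sharing in the gap of Bcl2l11 was not tested, and these data give no settled direction for Bcl2l11.

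Bcl2l11 also lies close to the targeted gene. Bub1 (chromosome 2, 127801122 to 127831865, minus strand) ends 294 kb before Bcl2l11 starts, and between them only Acoxl starts among the genes of the table. Bub1 itself had 6.73 TPM (Ctrl) and 5.32 TPM (Bub1 cKO), with an adjusted p of 0.985 according to the authors' deposited table, and tags from outside the deleted exons do not show a deletion. Besides Bcl2l11, 24 genes of the table lie within 1 Mb of Bub1, and 0 of these had an unadjusted p under 0.05, beside 4.81% of all genes. Among so few genes a count of 0 is near that share. Their statistics in the authors' deposited table ran from -1.005 (Dusp2) to 1.85 (Tmem127, unadjusted p 0.065). Acoxl, beside Bcl2l11, had 0.395 TPM (Ctrl) and 0.181 TPM (Bub1 cKO) and a statistic of -0.52. Bcl2l1 is on the same chromosome but 24.9 Mb away from Bub1. An effect of the engineered locus on a neighbour and an effect of Bub1 loss cannot be told apart in this design.

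**Figure D3:**
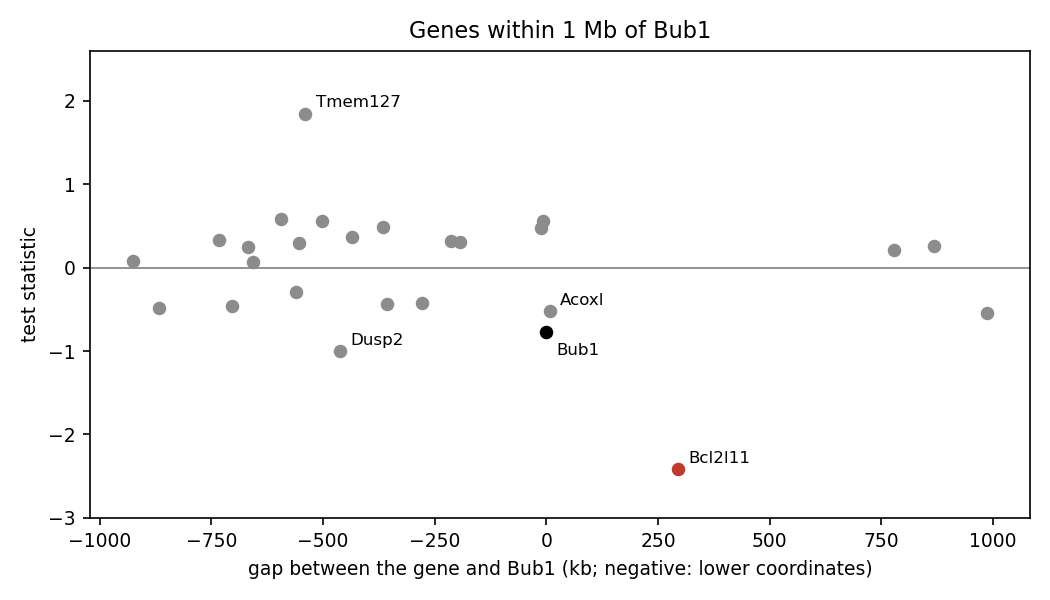
Test statistic of each gene of the table within 1 Mb of Bub1 against its gap from Bub1 in kb, with Bub1 in black and Bcl2l11 in red. Bcl2l11, 294 kb away, has the lowest statistic (-2.41), and the 24 other genes besides Bub1 run from -1.005 to 1.85.

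Bid (ENSMUSG00000004446.12, chromosome 6, 120891930 to 120916853, minus strand) is the protein that caspase-8 cleaves to link death receptors to mitochondria. Its levels were 5.81 TPM (Ctrl) and 8.45 TPM (Bub1 cKO), and its statistic of 1.10 in the authors' deposited table was the highest of the pro-death members (unadjusted p 0.270). The 95% interval of its tested change ran from -0.43 to 1.54. Bad (ENSMUSG00000024959.13, chromosome 19, 6941861 to 6951899, plus strand) is switched off by survival kinases through phosphorylation, which RNA levels do not show. It had 49.7 TPM (Ctrl) and 46.0 TPM (Bub1 cKO), and the authors' deposited table gives a log2 change of -0.11 (standard error 0.31).

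The effectors Bax and Bak1 had wide intervals around small changes. Bax (ENSMUSG00000003873.11, chromosome 7, 45461697 to 45466898, minus strand), also a p53 target, had 22.9 TPM (Ctrl) and 17.3 TPM (Bub1 cKO). Its log2 change in the authors' deposited table was -0.38 (standard error 0.53, adjusted p 0.985). Bak1 (ENSMUSG00000057789.13, chromosome 17, 27019810 to 27029009, minus strand) had 15.6 TPM (Ctrl) and 16.1 TPM (Bub1 cKO), with a standard error of 0.35. The 95% intervals of the tested changes, -1.39 to 0.70 for Bax and -0.58 to 0.79 for Bak1, do not show that the effectors were unaffected.

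In GENCODE M21, 7 of the 10 members overlap another annotated gene, and for 3 of them (Bid, Bad and Bak1) the partner is on the opposite strand and has a row. Bak1 lies inside Ggnbp1, a gene on the opposite strand that the authors' deposited table puts at 0.330 TPM (Ctrl) and 5.95 TPM (Bub1 cKO), with an unadjusted p of 0.157. Bid shares 913 bases with Bcl2l13, another family gene, at 2.604 TPM (Ctrl) and 1.67 TPM (Bub1 cKO). Bad shares 620 bases with Gpr137, at 3.26 TPM (Ctrl) and 5.16 TPM (Bub1 cKO). Strand use in counting was not given in the sources used here. Without it, reads that fall in the shared bases cannot be told apart. The bases that Bid shares with Bcl2l13 are its 3' end, where reads of a 3' tag library come from. Those that Bad shares with Gpr137 are at its start. Bid also overlaps Gm44260 by 2094 bases on its own strand and Gm17812 by 318 bases on the opposite strand, neither with a row. Bax overlaps the gene model Gm45808 by 915 bases on its own strand, and Bcl2a1b overlaps Gm29094 by 8449 bases on its own strand. Bcl2 and Bcl2a1d also overlap annotated genes. The partners of these 4 members were not analysed here.

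Set against each other, the classes differed in their values, with no test of the classes. Of the 5 pro-survival members 4 had a positive statistic, and of the 5 pro-death members 2 did, beside 49.9% of all genes. The median log2 change was 1.01 for pro-survival and 0.04 for pro-death members, beside -0.01 over all genes. Without Bcl2a1d, which is listed at 0 in Ctrl, the pro-survival median was 0.54, and after adding 5 TPM to each value instead of 1 it was 0.40. Without both Bcl2a1d and Bcl2, the members that reach 1 TPM only through Bub1 cKO, it was 0.07, close to the 0.04 of the pro-death members. Without both Bcl2a1 copies, a planned setting, the pro-survival median stayed at 1.01, which is the log2 change of Bcl2l1. In the deposited log2 change, the difference between the class medians thus depends on which pro-survival members are kept. With the tested change the medians were 1.19 for pro-survival and -0.16 for pro-death members. Leaving out the scarce genes was not examined for the tested change.

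In summed TPM the abundant members weigh most. Pro-survival members summed to 83.0 TPM (Ctrl) and 91.8 TPM (Bub1 cKO), and pro-death members to 110 and 104 TPM. The ratio of pro-survival to pro-death TPM was 0.758 in Ctrl and 0.881 in Bub1 cKO, higher by a factor of 1.16, with no error. Without Mcl1, which makes up most of the pro-survival sum, the ratio was 0.147 in Ctrl and 0.249 in Bub1 cKO, a factor of 1.69. Leaving out each of the other 9 members in turn gave factors from 1.10 (without Bax) to 1.20 (without Bid).

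**Figure D4:**
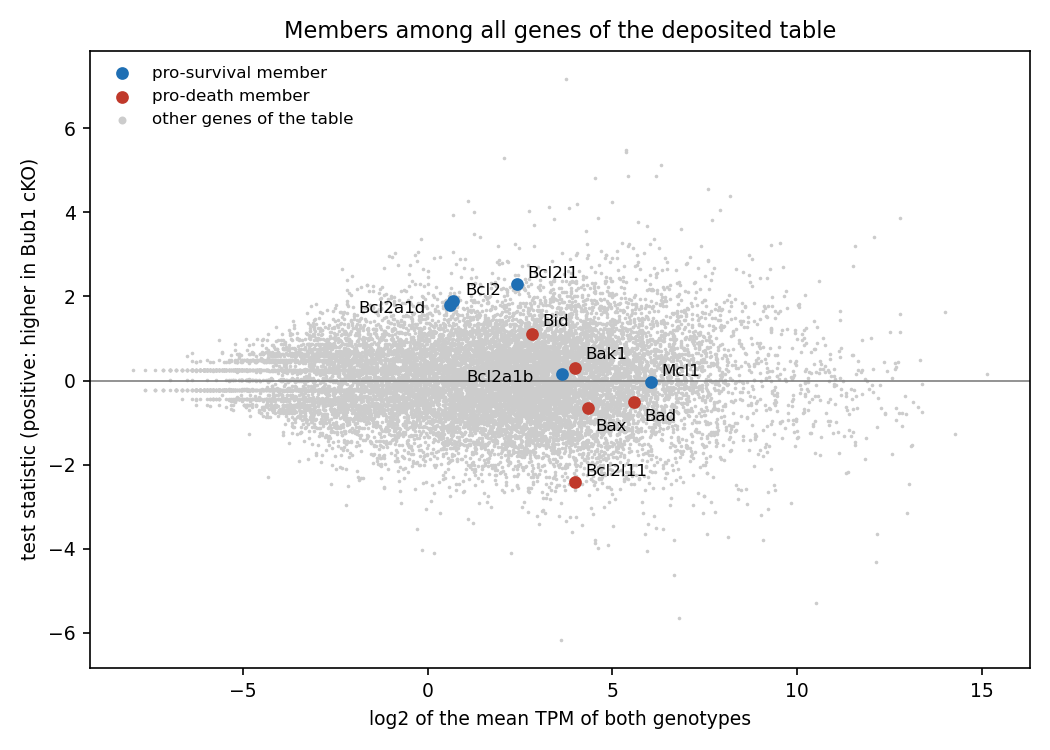
Test statistic of every gene of the table (grey) against the log2 of its mean TPM, with the pro-survival members in blue and the pro-death members in red. Bcl2l1 (2.30) and Bcl2l11 (-2.41) mark the ends of the members' range, and all 10 lie within the cloud of the other genes.

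Other genes of the family and of the apoptosis pathway were examined in 8 further lists holding 109 distinct genes, of which 102 have a row in the table. None passed the authors' adjusted p under 0.05 (smallest adjusted p 0.342 in the authors' deposited table). At an unadjusted p under 0.05, 1 of these was higher and 5 were lower, beside 2.35% and 2.46% of all genes. Of 13 other Bcl2 family genes 6 had a statistic above 0 and 7 below, and 0 had an unadjusted p under 0.05. Bbc3 (Puma, 5.65 TPM in Ctrl, 6.59 TPM in Bub1 cKO) and Pmaip1 (Noxa, 5.07 and 5.03 TPM), both picked once their values were known, are BH3-only genes and p53 targets like Bax. The mitophagy receptor Bnip3l had 82.3 TPM (Ctrl) and 52.5 TPM (Bub1 cKO), with an unadjusted p of 0.249 in the authors' deposited table. Bcl2l15 had 1.30 TPM (Ctrl) and 2.81 TPM (Bub1 cKO), with an unadjusted p of 0.534 in the authors' deposited table.

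Downstream of Bax and Bak1, the cytochrome c gene had a higher value in Bub1 cKO and most caspase genes had lower ones. Cycs, the cytochrome c gene, had 19.9 TPM (Ctrl) and 32.1 TPM (Bub1 cKO). For Cycs the authors' deposited table lists a log2 change of 0.66 (standard error 0.23, adjusted p 0.342). Its partner in the apoptosome, Apaf1, had 40.9 TPM (Ctrl) and 13.2 TPM (Bub1 cKO), with an unadjusted p of 0.061 (adjusted p 0.985) in the authors' deposited table. The tested change of Apaf1, -0.90, was smaller in size than the deposited -1.56. Of 10 caspase genes and nuclease partners 7 had a negative statistic, and their median log2 change was -0.35. The initiator Casp9 had 11.3 TPM (Ctrl) and 4.80 TPM (Bub1 cKO), with an unadjusted p of 0.118 in the authors' deposited table.

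Of 8 inhibitor of apoptosis genes 3 had a positive statistic and 5 a negative one, and 0 had an unadjusted p under 0.05. Xiap, which blocks caspases directly, had 18.9 TPM (Ctrl) and 23.8 TPM (Bub1 cKO), with an unadjusted p of 0.055 in the authors' deposited table. Birc3, an NF-κB target, had 17.8 TPM (Ctrl) and 18.6 TPM (Bub1 cKO) but a statistic of -1.82 (unadjusted p 0.069, authors' deposited table), opposite signs as in Bcl2l11.

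Upstream, of 19 genes of M-CSF and RANKL survival signalling 7 had a statistic above 0 and 12 below. With an unadjusted p under 0.05, 3 of the 19 had lower values in Bub1 cKO (beside 2.46% of all genes) and 0 had higher ones (beside 2.35%). Mapk3 (the kinase ERK1) had 77.7 TPM (Ctrl) and 34.8 TPM (Bub1 cKO), with an adjusted p of 0.445 according to the authors' deposited table. The tested change of Mapk3, -0.73, was smaller in size than the deposited -1.14. Csf1r, the M-CSF receptor, had 116 TPM (Ctrl) and 96.7 TPM (Bub1 cKO), with an adjusted p of 0.841 according to the authors' deposited table. ERK1 is known to phosphorylate Bim, which marks it for degradation. Akt1, a survival kinase picked once its values were known, had 45.9 TPM (Ctrl) and 44.1 TPM (Bub1 cKO). Csf1r is also a macrophage marker. The 12 macrophage markers summed to 2859 TPM in Ctrl against 1407 TPM in Bub1 cKO, 10 of them with a negative statistic. Lyz2, which encodes lysozyme, carries most of that drop, with 2141 TPM (Ctrl) and 762 TPM (Bub1 cKO), and the other 11 summed to 718 and 645 TPM. Of the 12, only Lyz2 passed the adjusted p under 0.05 (adjusted p 0.00033, authors' deposited table). The 10 osteoclast markers summed to 1987 and 2298 TPM, 8 with a positive statistic. The part of these in the values of Csf1r and Mapk3 was not tested.

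Of 18 regulators of Bcl2 proteins 11 had a positive statistic, and 0 had an unadjusted p under 0.05. Foxo3, a transcription factor known to induce Bcl2l11, had 2.62 TPM (Ctrl) and 1.09 TPM (Bub1 cKO), with an unadjusted p of 0.062 in the authors' deposited table. Its relative Foxo4 had 1.14 TPM (Ctrl) and 3.67 TPM (Bub1 cKO), with an unadjusted p of 0.056 in the authors' deposited table. Mitf, a transcription factor that can induce Bcl2, picked once its values were known, had 20.4 TPM (Ctrl) and 32.8 TPM (Bub1 cKO), with an unadjusted p of 0.104 in the authors' deposited table.

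**Figure D5:**
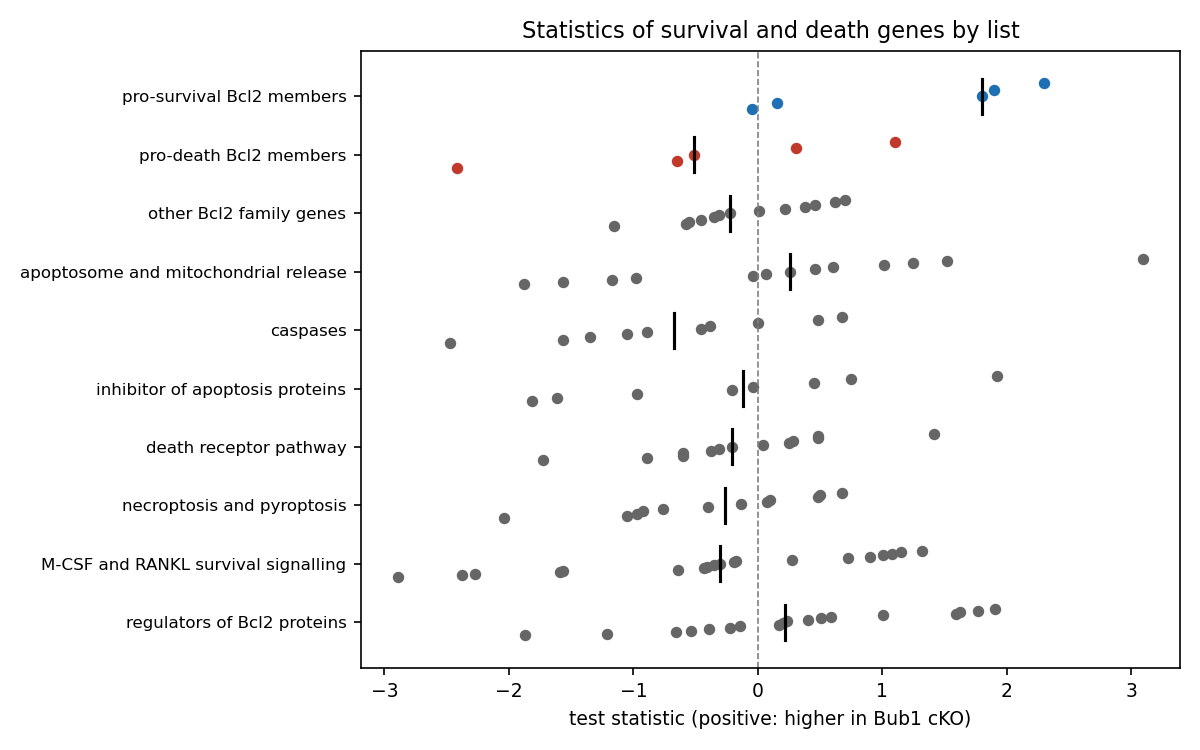
Test statistic of each gene with a row in the table, by list, with black lines at the list medians and members in blue (pro-survival) and red (pro-death). The statistics of each list lie on both sides of 0, and no gene shown passed the authors' adjusted p under 0.05.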

How the data were processed

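Each of the 6 libraries (3 per genotype) was made from 25 ng of RNA with the QuantSeq 3' mRNA kit, per the labels. The authors deposited 1 comparison table, whose header names RaNA-seq; the aligner, quantifier, test, annotation and build were not given in the sources used here. No unit is named for expression. The deposited expression values were taken as TPM because the columns sum to 999891 and 999954, and because the 5th percentile of Ctrl values over single-transcript genes drops from 0.259 at 400 to 800 bases to 0.032 at 3200 to 6400 bases. The deposited log2 change was recomputed from the TPM values, adding 1 to each, and matched within 0.002 in all 15982 genes. The standard error and statistic are scores of the authors' test, and the deposited p-value and adjusted p are theirs. Depth is unknown, so the authors' standard error stands for precision.

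Members were matched by symbol. Intervals, class medians and sums were computed with pandas 2.3.3 (Python 3.11.15). Benjamini-Hochberg adjustment, tested on simulated data, was repeated over genes averaging 1 TPM or more and 10 TPM or more. Positions and sequences come from GENCODE M21 (GRCm38), which holds 10 of 10 member IDs, 8 with the same version, and copies of Bcl2a1 were aligned with Biopython 1.88. Members and lists were chosen with earlier results of these data known. Named genes are the members, Bub1 and the 2 genes of smallest p per pathway list among those averaging 1 TPM or more; any other is marked as picked once its values were known, except overlapping genes, neighbours of Bub1 and genes of the marker lists, which are given by sums with the genes that carry them. Some genes counted in the lists are not reported here by name.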

Additional observations from a re-analysis of the deposited data

How the results depend on the processing

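No member passed the threshold when p was adjusted again over genes averaging 1 TPM or more (smallest adjusted p 0.598) or 10 TPM or more (0.430), and no gene of the 8 wider lists did (0.222 and 0.139). Bcl2l11 was the only member whose log2 change turned direction, to -0.61 with the tested change. The difference between the class medians was 0.96. With a pseudocount of 5 it was 0.37, since a larger pseudocount shrinks scarce genes, and without Bcl2 and Bcl2a1d it was 0.027. In 5 other settings it lay between 0.50 (without Bcl2a1d) and 1.35 (the tested change). Leaving out Bcl2a1d, alone or with Bcl2, was chosen after seeing the data. Keeping members with a mean of 1 TPM or more removed none of them and so could not change it. The factor between the genotypes' ratios was 1.16 for sums, and 1.75 for the geometric mean of TPM + 1, which weighs scarce and abundant members alike. The median of the inhibitor of apoptosis list turned sign in 3 of 3 settings and that of M-CSF and RANKL signalling in 1 of 3. No member has a repeated row, so summing repeated rows gave no other value. No paired analysis was possible because the table holds 1 value per genotype, and leaving out single libraries was not possible for the same reason. Precision is lowest for Bcl2a1d, with a standard error of 2.67.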

Other observations

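Genes of other routes to cell death were also measured. Of 13 death receptor genes 6 had a positive and 7 a negative statistic, with 0 at an unadjusted p under 0.05. The adaptor Tradd had 11.3 TPM (Ctrl) and 6.16 TPM (Bub1 cKO), with an unadjusted p of 0.085 in the authors' deposited table. Fadd, the adaptor that recruits caspase-8, had 1.19 TPM (Ctrl) and 2.42 TPM (Bub1 cKO), with an unadjusted p of 0.158 in the authors' deposited table. Of 12 genes of necroptosis and pyroptosis 5 had a positive and 7 a negative statistic. Gsdmd, whose cleaved product forms the pores of pyroptosis, had 70.3 TPM (Ctrl) and 49.4 TPM (Bub1 cKO), with an unadjusted p of 0.041 (adjusted p 0.985) in the authors' deposited table. Casp1, which cleaves it, had 30.7 TPM (Ctrl) and 23.8 TPM (Bub1 cKO), with an unadjusted p of 0.294 in the authors' deposited table.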
